A study of Mus musculus with 19 samples.

Results

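The cytochrome P450 genes of the Cyp2, Cyp3 and Cyp4 families were followed in mouse lung after repeated oral exposure to a mixture of polycyclic aromatic hydrocarbons (PAHs). Members were the array probes whose RefSeq identifier belonged to a gene with a symbol that began with Cyp2, Cyp3 or Cyp4, followed by subfamily letters and a number. Cyp2f2, a club cell gene, was left out of the members and used as a cell marker. Of 110 such genes in the RefSeq gene table, 75 had a probe (95 probes), out of 20660 genes with a probe on the array. Cyp2ab1, with a pair of subfamily letters, was counted as a member. The rule used no measured value.

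P450 enzymes are haem proteins of the endoplasmic reticulum that insert oxygen into drugs, environmental chemicals, fatty acids and steroids, with electrons passed on by the reductase encoded by Por. PAHs bind AHR, the aryl hydrocarbon receptor, whose textbook targets are the enzymes of the Cyp1 family. Many Cyp2, Cyp3 and Cyp4 genes are instead controlled by the nuclear receptors CAR, PXR and PPAR. In lung these enzymes are found mainly in club cells, alveolar type 2 cells and endothelium, where they act on inhaled and blood-borne chemicals and on arachidonic acid and its products.

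Lung RNA came from 18 male MutaTMMouse animals of about 12 weeks of age, a transgenic strain on a BALB/C-DBA/2 background that carries a bacterial reporter gene for mutation assays in every group, controls included. All mice were gavaged daily for 28 days, D0 (5 mice) with olive oil alone, and D1 (4 mice), D2 (5 mice) and D3 (4 mice) with the 8PAH mixture in olive oil at 15, 30 and 60 mg benzo[a]pyrene (BaP) equivalents/kg-bw/day. Lungs were taken 72 hours after the last dose, and RNA was extracted from random sections of the tissue. Each of 19 arrays compared a mouse's lung RNA (Cy5, red) with Universal Mouse Reference RNA, a pool from mouse cell lines (Cy3, green), and values below are log2 ratios of lung over reference unless said otherwise. A gene was read from its probe with the highest mean red signal, and ratios of different genes were not set against each other. Mouse 35 of D3 had 2 arrays, which were averaged (r = 0.978 across probes). Mouse 23 is labelled D2, but its number lies between those of D1 mice, and the final sample sizes that the methods state would hold if it belonged to D1. It was kept in D2 as labelled, and whether the label or the methods are right could not be settled.

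The median red signal of an array was 114 to 152 and the median local background 72.0 to 80.0, 54.5% to 64.7% of spots were well above background in red, and no spot was saturated. The arrays lay on 3 slides (8, 7 and 4 arrays), each of which held all 4 groups. The 2 arrays of mouse 35 lay on slides 2 and 3, and slide 3 held no other D3 array. D3 differences within slides 2 and 3 therefore share this mouse and are not independent. Arrays of a dose group sat in the same column of each slide, and the effects of column and dose cannot be told apart. Lung identity was borne out by the surfactant genes Sftpc, Sftpa1, Sftpb and Sftpd and the club cell gene Scgb1a1, which were well above background in all 18 mice.

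The promoters of the Cyp2j genes on chromosome 4 and of Cyp4b1 are printed first, since 3 of the increases and the main decrease described below were in these genes. The RefSeq promoter table (build GRCm38.p6) matched 57 of the 75 genes with a probe. The 250 bases before the gene start are shown 5′ to 3′ on the gene's strand. Capitals mark GCGTG, the core of the element that AHR binds together with its partner ARNT, or TGGGTAAA, the longest run of bases shared by the 3 Cyp2j promoters shown (8 bases, found by searching these sequences on both strands).
Cyp2j8 (chr4:96507398-96507647, minus strand): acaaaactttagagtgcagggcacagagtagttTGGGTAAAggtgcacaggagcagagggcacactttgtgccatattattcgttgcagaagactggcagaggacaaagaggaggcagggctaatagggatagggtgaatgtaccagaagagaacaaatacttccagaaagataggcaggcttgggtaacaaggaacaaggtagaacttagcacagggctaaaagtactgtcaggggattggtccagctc
Cyp2j6 (chr4:96553652-96553901, minus strand): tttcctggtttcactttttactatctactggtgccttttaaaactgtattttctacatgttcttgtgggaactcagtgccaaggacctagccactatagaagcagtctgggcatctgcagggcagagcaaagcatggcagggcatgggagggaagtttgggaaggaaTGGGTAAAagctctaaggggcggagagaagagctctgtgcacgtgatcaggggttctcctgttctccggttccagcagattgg
Cyp2j9 (chr4:96591486-96591735, minus strand): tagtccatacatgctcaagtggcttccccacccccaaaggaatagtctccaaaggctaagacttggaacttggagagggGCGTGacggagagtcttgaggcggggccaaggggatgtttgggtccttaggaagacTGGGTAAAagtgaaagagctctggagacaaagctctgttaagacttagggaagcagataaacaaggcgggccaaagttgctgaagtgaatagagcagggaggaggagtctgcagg
Cyp4b1 (chr4:115647722-115647971, minus strand): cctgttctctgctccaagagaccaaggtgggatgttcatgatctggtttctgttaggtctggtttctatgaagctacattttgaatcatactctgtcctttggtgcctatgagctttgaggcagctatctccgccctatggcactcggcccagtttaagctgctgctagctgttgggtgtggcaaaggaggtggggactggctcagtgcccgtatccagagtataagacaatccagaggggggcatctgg
In these windows GCGTG was present once in the Cyp2j9 promoter and in none of the other 3. It was present, on either strand, in 17.2% of the 64 member promoters (7 of the 26 promoters of tested members) and in 28.2% of all 32851 promoters of the same length. TGGGTAAA lay 217, 83 and 115 bases before the start of Cyp2j8, Cyp2j6 and Cyp2j9, was also present in Cyp2j5, and was in neither the Cyp2j11 promoter nor those of Cyp2j13 (4 of 7 Cyp2j promoters held it). It occurred in 0.782% of all promoters, and it was chosen after the sequences had been seen. AGGTCA, the core letters recognised by many nuclear receptors, was in 25% of member promoters (4 of the 26 of tested members) and 14% of all promoters. For TTATGNAA, the D-box of clock-controlled genes, the shares were 7.81% (2 of the 26 of tested members) and 3.07%. Neither was in the 4 promoters shown. Both strands were searched for each motif. A match of letters is a description and not evidence of binding.

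Many of these genes were dim in lung. A gene was tested where a probe's red signal was well above background in at least 4 mice of 1 group, which held for 32 of the 75 members (42.7%) and for 71.5% of all genes with a probe. Of the 43 members not tested, 25 were well above background in no mouse and 18 in at least 1 mouse. Of the tested members, 28 were above background in all 18 mice.

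Detection differed by subfamily. The Cyp4f genes, which oxidise leukotrienes and other fatty acids at the end of the chain, were tested for 6 of 10 genes, and the Cyp2j genes, which form epoxides of arachidonic acid, for 4 of 6. The lone genes of Cyp2e, Cyp2r, Cyp2s, Cyp2t and Cyp4v were tested, and those of Cyp2ab, Cyp2g, Cyp2u, Cyp2w and Cyp4x were not. Of the 8 Cyp3a genes, the main drug-oxidising enzymes of liver and gut, 2 were tested (Cyp3a11, above background in 11 mice, and Cyp3a13, in 12 mice) and 6 were above background in no mouse. Of the 13 Cyp2c genes 4 were tested, and of the 10 Cyp2d genes 4.

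The genes seen in no mouse included Cyp2c29, Cyp2c55, Cyp2g1 (a gene of the olfactory mucosa), Cyp2w1, Cyp3a25, Cyp4a14 and Cyp4x1. Cyp4a12b was above background in 11 mice, Cyp4a12a in 10, Cyp2u1 in 6 and Cyp2a12 in 4, but none of them in 4 mice of the same group, so they were not tested. Of 9 hepatocyte markers, Apoa2, Apob, Serpina1a and Tat were above background in all 18 mice, Alb in 11, Apoa1 and Ttr in 4 each, Fgb in 3 and Cps1 in none. Similar genes within Cyp2a, Cyp2b, Cyp2c, Cyp2d, Cyp2j, Cyp3a, Cyp4a and Cyp4f may share a probe. The probe sequences were not analysed here, so single names in these subfamilies are uncertain.

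**Figure D1:**
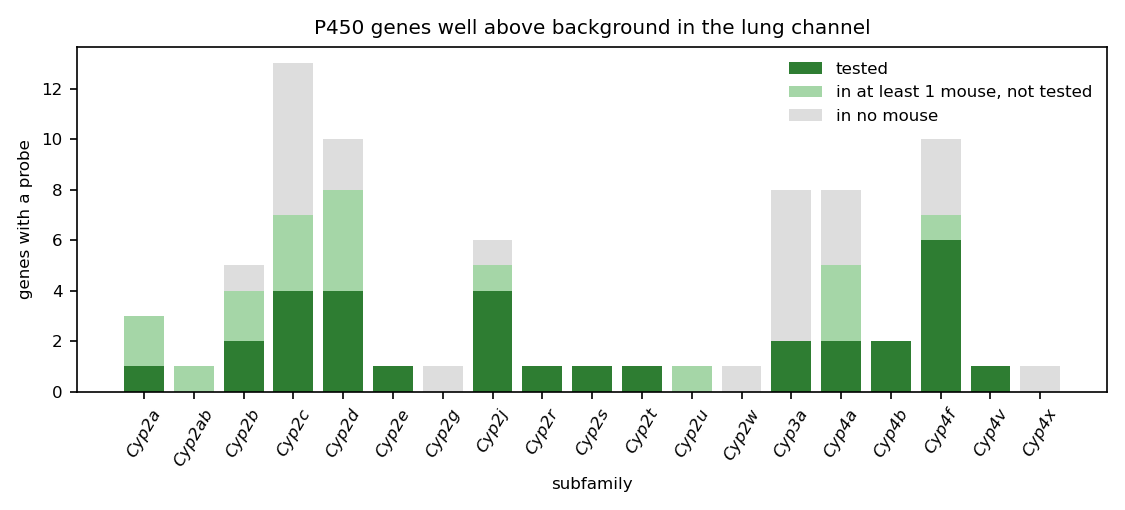
Number of P450 genes with a probe in each subfamily, split by whether the lung signal was tested (dark), was well above background in at least 1 mouse without passing the filter (light), or in no mouse (grey). Cyp4f and Cyp2j had most of their genes tested, while 6 of 8 Cyp3a genes were seen in no mouse.

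The question for these genes was whether the mixture moved P450s outside the Cyp1 family. Changes were small at every dose, on ratios of signals without background subtraction. The members called with the scanner's processed signals, in which background was removed, had larger changes there. These were Cyp4b1-ps2 and Cyp2j8 at D3 (1.36 and 0.71, beside 0.62 and 0.49 here) and Cyp2c37 at D1 (-0.63, beside -0.32 here). Of 32 members, 1 was called in D3 against D0 by limma (Benjamini-Hochberg adjusted p at most 0.05 and at least 1.5-fold), the pseudogene Cyp4b1-ps2, where 2.73% of all 14762 genes tested were called. None was called at D1 (background 1.19%) or at D2 (background 0.975%). By the linear trend over dose none was called either (background 2.03%). At an unadjusted limma p under 0.05 there were 8 of 32 members at D1, 4 at D2 and 8 in the trend. Of all 14762 genes, 3184, 2517 and 3560 were under it.

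By adjusted p alone, 7 members (21.9%) passed at D3, where 13.8% of all genes did. Higher were Cyp2j6, Cyp2j8, Cyp2j9, Cyp4f17 and Cyp4b1-ps2 (background for higher genes 8.41%), and lower were Cyp4b1 and Cyp2c37 (background for lower genes 5.39%). At D1, 4 members (12.5%) passed where 5.18% of genes did, with Cyp2j8, Cyp4f13 and Cyp4f17 higher (background 3.45%) and Cyp2c37 lower (background 1.73%). At D2 none passed (background 2.92%). With mouse 23 counted in D1, 1 member passed at D1 and none was called at D3. In the trend Cyp2j8 rose (background for higher genes 4.73%) and Cyp4b1 fell (background for lower genes 2.85%), and 7.58% of all genes passed. Cyp2j8 and Cyp2c37, and below Cyp2j13, Cyp2b9, Cyp4a31 and several Cyp2c and Cyp2d genes, lie outside the fixed set of named genes and were chosen after their values were seen. The 3 doses were compared with the same 5 D0 mice, so the comparisons are not independent.

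The median log2 change over the 32 members was 0.10 at D1, 0.03 at D2 and 0.01 at D3, beside 0.03, 0.02 and 0.03 over all genes. Above 0 were 23, 19 and 17 members, beside 56.8%, 54.8% and 57.1% of all genes. For 25 members at D1, 29 at D2 and 25 at D3 the whole 95% interval of the change lay inside 1.5-fold either way, as it did for 86.9%, 89.9% and 83.2% of all genes. Fewer cells of a type and less RNA per cell cannot be told apart in these whole-lung samples.

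**Figure D2:**
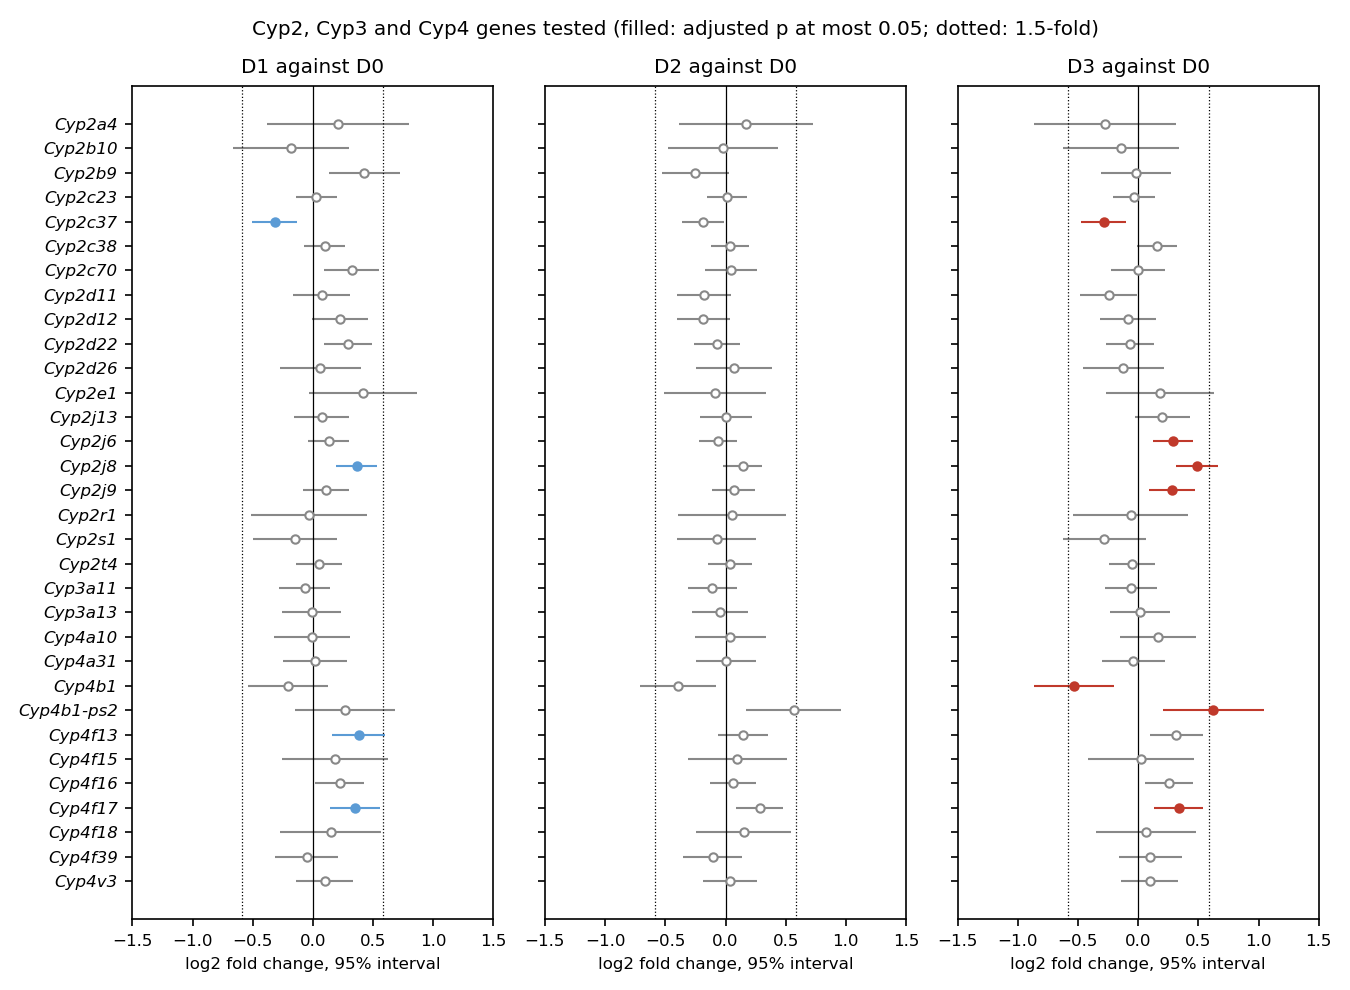
Log2 fold change against D0 with its 95% interval for the 32 tested P450 genes at each dose; filled points passed the adjusted p, and dotted lines mark 1.5-fold. Filled points number 4 at D1, none at D2 and 7 at D3, and the Cyp2j and Cyp4f genes all lie right of 0 at D3.

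Of 4 tested Cyp2j genes, 3 (Cyp2j8, Cyp2j6 and Cyp2j9) rose at D3, Cyp2j6 by the probe that was above background in all mice. All 4 lay above their D0 level, by 0.20 to 0.49, where 57.1% of all genes did and 8.41% passed as higher. Cyp2j enzymes convert arachidonic acid to epoxides and hydroxy acids that act on vessels and airways.

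Cyp2j8 (NM_001104927) had the lowest adjusted p of the members at both D1 and D3. Its log2 ratios in D0 were 0.58, 0.59, 0.48, 0.76 and 0.75 (mice 1 to 5). In D1 they were 1.01, 1.01, 1.04 and 0.91 (mice 21, 22, 24 and 25), in D2 0.89, 0.65, 0.77, 0.79 and 0.76 (mice 23, 26, 28, 29 and 30), and in D3 1.04, 1.04, 1.04 and 1.37 (mice 31, 32, 34 and 35). Every D1 and every D3 mouse lay above every D0 mouse, while D2 overlapped with D0. The change was 0.36 at D1 (SE 0.083, limma adjusted p = 0.0163), 0.14 at D2 (adjusted p = 0.426) and 0.49 at D3 (SE 0.083, adjusted p = 0.000849), a 1.41-fold increase at D3. Within the slides the D3 increase was 0.45 to 0.62 on all 3, of which slides 2 and 3 share mouse 35. It passed the adjusted p whichever mouse was left out, at D1 (0.00749 to 0.0493) and at D3 (0.000972 to 0.00438), the trend was 0.41 from D0 to D3 (adjusted p = 0.0251), and a second probe was above background in no mouse.

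Cyp2j6 (NM_010008) held almost 1 value in D0, with 0.77, 0.76, 0.76, 0.77 and 0.82 (mice 1 to 5). D1 had 1.02, 0.78, 0.76 and 1.06 (mice 21, 22, 24 and 25), D2 had 0.74, 0.58, 0.87, 0.79 and 0.57 (mice 23, 26, 28, 29 and 30), and D3 had 1.14, 1.02, 0.98 and 1.11 (mice 31, 32, 34 and 35). All D3 mice lay above all D0 mice, and D1 and D2 overlapped with D0. The change was 0.13 at D1 (adjusted p = 0.388), -0.06 at D2 (adjusted p = 0.768) and 0.29 at D3 (SE 0.080, limma adjusted p = 0.0235), and it no longer passed without D3 mouse 31 (0.26, adjusted p = 0.0748) or D3 mouse 35 (0.27, adjusted p = 0.0692). The D3 change was 0.26 to 0.34 on the 3 slides.

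The second probe of Cyp2j6 was too dim in D0 to give the size of a change. It was well above background in 0, 2, 4 and 3 mice of D0, D1, D2 and D3. In the red channel alone its normalized log2 means were 6.43 in D3 and 6.33 in D0 (1.07-fold), a difference without an interval. Its ratio to the reference, measured against D0 mice in which it was not well above background, differed by -0.01 (95% interval -0.26 to 0.24, limma adjusted p = 0.967). Whether the probes differ was not tested.

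Cyp2j9 (NM_028979) was 2.67, 2.67, 2.76, 2.72 and 2.51 in D0 (mice 1 to 5) and 2.91, 2.92, 3.13 and 2.83 in D3 (mice 31, 32, 34 and 35), with no overlap. D1 (2.95, 2.85, 2.65 and 2.66 in mice 21, 22, 24 and 25) and D2 (2.83, 2.67, 2.64, 2.93 and 2.59 in mice 23, 26, 28, 29 and 30) overlapped with D0. The D3 change was 0.28 (SE 0.091, limma adjusted p = 0.0488), with 0.20 to 0.31 on the 3 slides. It sat at the threshold: leaving out mice in turn gave adjusted p from 0.0389 to 0.158, and it passed only when mouse 21, 24 or 25 of D1 or mouse 29 or 30 of D2 was left out. Cyp2j13, above background in 16 mice, differed from D0 by 0.20 at D3 (95% interval -0.03 to 0.43, adjusted p = 0.259).

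Heart and endothelium, which also express Cyp2j genes, were followed by their markers. The mean over 5 heart muscle genes was 2.49 to 3.04 in D0 and spread from 0.69 to 3.98 in D3, with none called, and over 6 endothelial genes it was 5.23 to 5.74 in D0 and 5.42 to 5.76 in D3, with Pecam1 called higher (0.66). Their part in the Cyp2j increases was not tested.

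The Cyp4f genes lay above D0 at D3 in all 6 tested cases, by 0.02 to 0.34 (below 0 were Cyp4f39 and Cyp4f18 with the processed signals and Cyp4f15 with the deposited table or the second array of mouse 35), and 1 of them, Cyp4f17, passed the adjusted p there. At D1 5 of 6 lay above D0, and Cyp4f13 and Cyp4f17 passed. Of all genes, 57.1% lay above D0 at D3 and 56.8% at D1, and 8.41% and 3.45% passed as higher. Cyp4f enzymes hydroxylate leukotriene B4, other eicosanoids and long-chain fatty acids.

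Cyp4f17 (NM_001101445) had D0 values of 0.71, 0.94, 0.85, 1.03 and 0.81 (mice 1 to 5). D1 had 1.36, 1.18, 1.30 and 1.03 (mice 21, 22, 24 and 25), D2 had 1.01, 1.24, 1.45, 1.05 and 1.02 (mice 23, 26, 28, 29 and 30), and D3 had 1.34, 1.19, 1.11 and 1.19 (mice 31, 32, 34 and 35). The D3 mice lay above all D0 mice, and the increase was near the same size at each dose, 0.35 at D1 (SE 0.099, limma adjusted p = 0.0491), 0.29 at D2 (adjusted p = 0.128) and 0.34 at D3 (SE 0.099, adjusted p = 0.0308). At D1 the adjusted p ran from 0.0257 to 0.142 as mice were left out and passed only when mouse 4, 25 or 28 was left out. At D3 it was lost when mouse 1, 3, 5, 31, 32 or 35 was left out, reaching 0.102.

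Cyp4f13 (NM_130882) had D0 values of 0.28, 0.44, 0.72, 0.83 and 0.64 (mice 1 to 5), below all D1 values of 1.07, 0.87, 0.98 and 0.92 (mice 21, 22, 24 and 25). D2 had 0.69, 0.51, 0.88, 0.71 and 0.86 (mice 23, 26, 28, 29 and 30) and D3 had 0.83, 0.75, 0.97 and 1.04 (mice 31, 32, 34 and 35). It rose at D1 by 0.38 (SE 0.105, limma adjusted p = 0.0446), while the D3 difference of 0.32 (SE 0.105) had an adjusted p of 0.0564. With slide as a block both passed, at 0.0129 for D1 and 0.0191 for D3. Leaving out mice in turn gave 0.0282 to 0.121 at D1, where it passed only when mouse 4, 26, 28, 29, 30, 32 or 35 was left out.

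Cyp4f16 differed from D0 by 0.22 at D1 (adjusted p = 0.200) and 0.26 at D3 (adjusted p = 0.0938). Cyp4f15 and Cyp4f39, which acts on very long fatty acids in skin, had D3 differences of 0.02 (adjusted p = 0.962) and 0.10 (adjusted p = 0.667). Cyp4f18, the leukotriene B4 hydroxylase of mouse neutrophils, differed by 0.06 at D3 (95% interval -0.35 to 0.48, adjusted p = 0.882). Markers of neutrophils and monocytes were higher at D3 in the same samples: S100a8 (1.77), Retnlg (1.30), Cxcr2 (0.92) and S100a9 (0.86) were called, 4 of 6 where 2.73% of all genes were, while Csf3r was lower by adjusted p (-0.46). Their mean log2 ratio over the 6 genes was 1.78 to 2.45 in D0, 2.42 to 2.57 in D1, 2.25 to 2.89 in D2 and 2.43 to 3.66 in D3, and its part in the Cyp4f values was not tested.

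**Figure D3:**
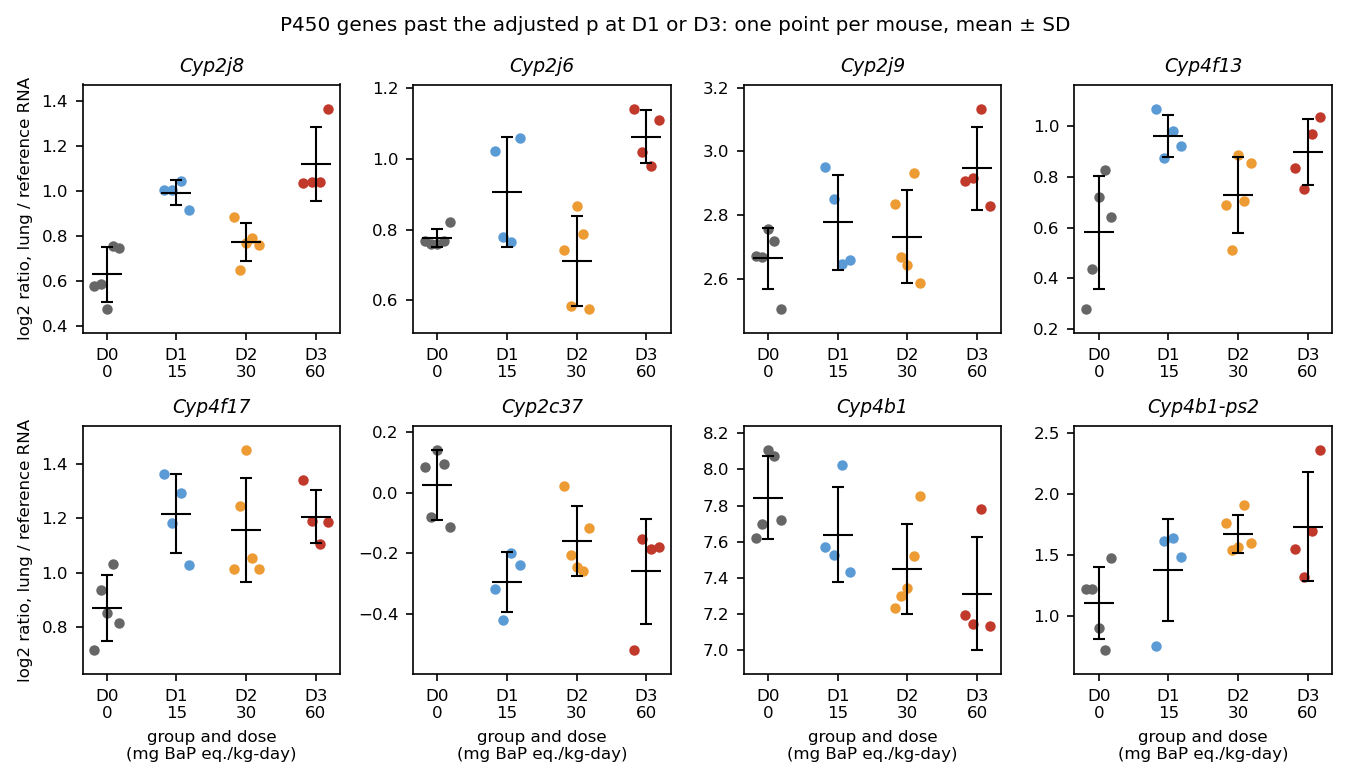
Log2 ratio of lung over reference RNA in every mouse for the 8 P450 genes past the adjusted p at D1 or D3, with the group mean and SD; the x axis gives the group and the dose in mg BaP equivalents/kg-day, and each y axis has its own range. Cyp2j8, Cyp2j6, Cyp2j9 and Cyp4f17 have all D3 mice above all D0 mice, Cyp2c37 has them below, and Cyp4b1 and Cyp4b1-ps2 overlap.

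Cyp4b1 had the largest decrease among the members past the adjusted p at D3. It encodes a fatty acid hydroxylase that is abundant in lung and activates pulmonary toxicants such as ipomeanol. Its values (NM_007823) were 7.62, 7.70, 8.11, 8.07 and 7.72 in D0 (mice 1 to 5) and 7.57, 7.53, 8.02 and 7.43 in D1 (mice 21, 22, 24 and 25). In D2 they were 7.24, 7.30, 7.35, 7.52 and 7.85 (mice 23, 26, 28, 29 and 30) and in D3 7.20, 7.14, 7.78 and 7.13 (mice 31, 32, 34 and 35). The group means stepped down with dose, and in each dosed group 1 mouse of slide 2 (mice 24, 30 and 34) reached into the D0 range.

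The change of Cyp4b1 was -0.21 at D1 (SE 0.159, limma adjusted p = 0.520), -0.39 at D2 (SE 0.150, adjusted p = 0.204) and -0.53 at D3 (SE 0.159, 1.44-fold lower, adjusted p = 0.0347), and the trend from D0 to D3 was -0.53 (adjusted p = 0.0383). Slides differed in the level of this probe, with D0 at 7.62 and 7.70 on slide 1, 8.11 and 8.07 on slide 2 and 7.72 on slide 3. Within slides 1, 2 and 3, with 2, 2 and 1 arrays of each of these groups, the difference from D0 was -0.33, -0.40 and -0.49 at D2 and -0.49, -0.52 and -0.80 at D3. At D3 slides 2 and 3 share mouse 35. With slide as a block Cyp4b1 passed the adjusted p at D2 (0.00839) as well as at D3 (0.000443). Without a block the D3 decrease was lost when mouse 3, 4, 31, 32 or 35 was left out (adjusted p up to 0.110), and without D3 mouse 34 it was -0.69 (adjusted p = 0.00839), past 1.5-fold.

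Markers of lung epithelial cell types were measured in the same mice, and which cells hold this enzyme was not measured. The mean over 6 club cell genes was 5.55 to 6.49 in D0 and 5.42 to 6.15 in D3, none of them called, and over 7 alveolar type 2 genes it was 5.48 to 6.06 in D0 and 5.23 to 5.69 in D3, with Abca3 lower by adjusted p (-0.48). Among 5 alveolar type 1 genes Cav1 was called lower (-0.64), and their mean was 3.59 to 4.03 in D0 and 3.33 to 3.73 in D3. The part of these cells in the Cyp4b1 decrease was not tested.

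Cyp4b1-ps2 (NR_033575), a pseudogene of Cyp4b1, moved the other way. Its values were 1.22, 1.22, 0.90, 0.72 and 1.47 in D0 (mice 1 to 5) and 0.76, 1.61, 1.64 and 1.48 in D1 (mice 21, 22, 24 and 25). D2 had 1.76, 1.54, 1.56, 1.90 and 1.59 (mice 23, 26, 28, 29 and 30), all above D0, and D3 had 1.55, 1.32, 1.69 and 2.36 (mice 31, 32, 34 and 35), which overlapped with D0. The change was 0.27 at D1 (adjusted p = 0.503), 0.57 at D2 (adjusted p = 0.139) and 0.62 at D3 (SE 0.200, 1.54-fold, limma adjusted p = 0.0467), with 0.21 to 1.24 on the 3 slides. The call at D3 was kept only when mouse 5, 21, 22, 24, 29 or 32 was left out, and the adjusted p ran from 0.0237 to 0.192. The processed signals of the scanner software gave a change of 1.36 at D3 (adjusted p = 0.0496). How far the probes of Cyp4b1 and of its pseudogene read each other's RNA was not tested.

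Cyp2c37 (NM_010001), a hydroxylase of arachidonic acid, had D0 values of 0.09, -0.08, 0.14, 0.09 and -0.11 (mice 1 to 5). D1 had -0.32, -0.42, -0.20 and -0.24 (mice 21, 22, 24 and 25), D2 had 0.02, -0.21, -0.24, -0.26 and -0.11 (mice 23, 26, 28, 29 and 30), and D3 had -0.52, -0.15, -0.19 and -0.18 (mice 31, 32, 34 and 35). All D1 and D3 mice lay below all D0 mice. The change was -0.32 at D1 (SE 0.089, limma adjusted p = 0.0465), -0.18 at D2 (adjusted p = 0.308) and -0.28 at D3 (SE 0.089, adjusted p = 0.0430).

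The D3 decrease of Cyp2c37 was -0.20 without mouse 31 (adjusted p = 0.170) and was also lost when mouse 1, 3, 4, 21, 26, 30, 34 or 35 was left out. At D1 it passed only when mouse 2, 5, 23, 28, 29 or 31 was left out (adjusted p up to 0.132 otherwise). The second Cyp2c37 probe was above background in no mouse. The other tested Cyp2c genes did not pass: at D3 Cyp2c38 differed by 0.16, Cyp2c70 by 0.00 and Cyp2c23 by -0.03, and at D1 Cyp2c70 differed by 0.32 (adjusted p = 0.0947). The 4 hepatocyte markers tested had a mean of 0.54 to 1.08 in D0 and 0.68 to 1.18 in D3, none called, and their part in the Cyp2c37 values was not tested.

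Counted by mice that do not overlap with D0, 4 members qualified at D1 (Cyp2b9, Cyp2j8 and Cyp4f13 above, Cyp2c37 below), 12.5% of 32 beside 10% of all genes. At D2 it was Cyp4b1-ps2 alone (3.12% beside 5.22%), and at D3 5 members (15.6% beside 16.3%), Cyp2j6, Cyp2j8, Cyp2j9 and Cyp4f17 above and Cyp2c37 below. These shares lay near those of all genes.

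**Figure D4:**
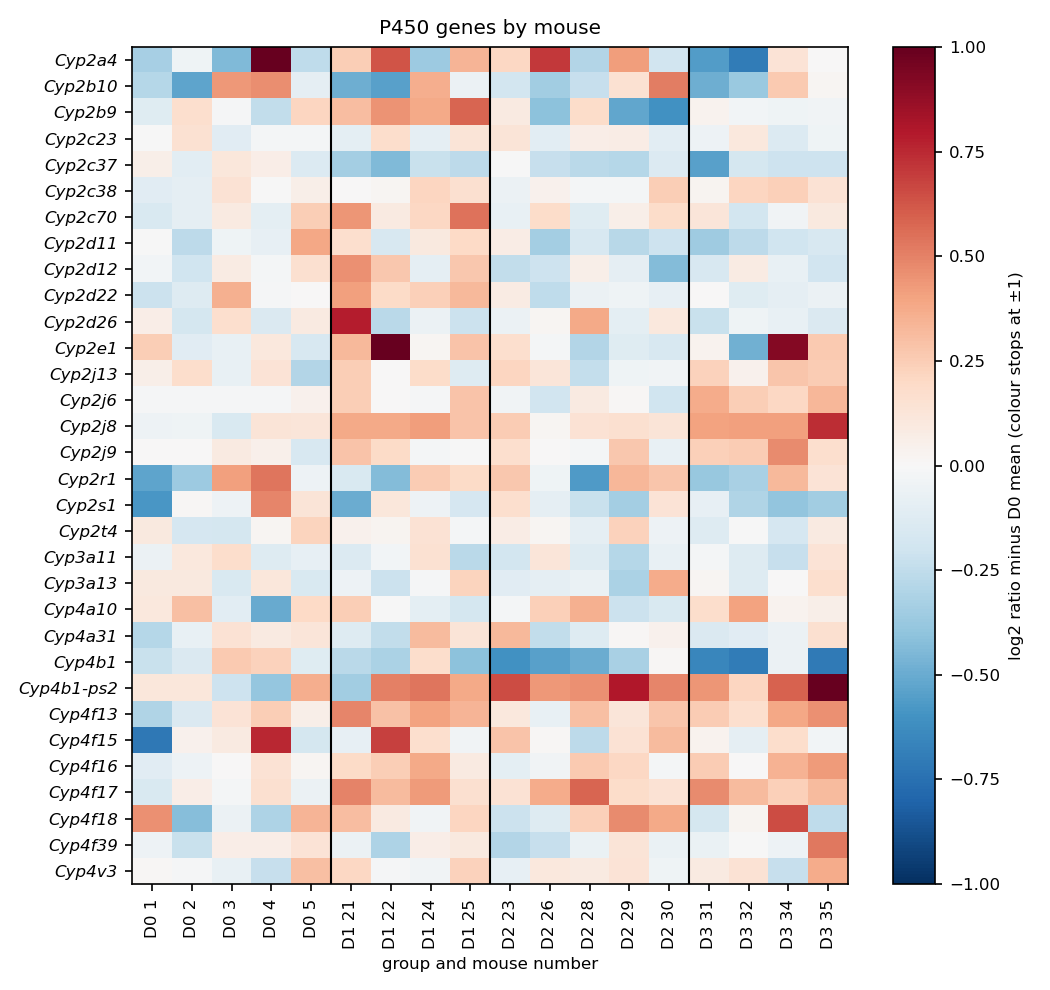
Log2 ratio of each tested P450 gene (rows) in each mouse (columns, by group and mouse number) minus the mean of the D0 mice; red is above and blue below D0, and the colour stops at 1 either way. The Cyp2j8 row is red in all D1 and D3 mice, the Cyp4b1 row is blue in most D2 and D3 mice, and Cyp2a4 and Cyp2e1 vary widely within groups.

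By the ratios, Cyp2b10, Cyp2b9 and Cyp2e1 did not pass the adjusted p at any dose. Cyp2b10, the main target of CAR, ranged from 5.36 to 6.34 in D0 and from 5.39 to 6.14 in D3, a difference of -0.14 (95% interval -0.63 to 0.34, adjusted p = 0.752). In the red channel alone the difference was 0.34 (limma adjusted p = 0.0309). That setting left out the reference and also scaled between arrays in place of loess, so the direction depends on the processing. Cyp2b9 differed by 0.43 at D1 (95% interval 0.13 to 0.72, adjusted p = 0.0862), -0.25 at D2 and -0.02 at D3. Cyp2e1, which oxidises ethanol and small solvents, ranged from 2.52 to 2.93 in D0, from 2.70 to 3.72 in D1 and from 2.20 to 3.60 in D3. Its differences were 0.42 at D1 (95% interval -0.03 to 0.86) and 0.18 at D3 (-0.27 to 0.63), and its second probe gave 0.42 and 0.14.

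Cyp2a4, a steroid hydroxylase, varied between 4.72 and 6.23 in D0 and between 4.46 and 5.29 in D3. The difference was -0.28 (95% interval -0.87 to 0.31, adjusted p = 0.582), and -0.12 by its second probe. Cyp2a5 had no probe here and its RNA may be read by the Cyp2a4 probes, which was not tested. Cyp2s1, which is known as a P450 outside the Cyp1 family that AHR ligands can induce, ranged from 3.10 to 4.17 in D0 and from 3.29 to 3.60 in D3, with -0.15 at D1, -0.07 at D2 and -0.28 at D3 (95% interval at D3 -0.63 to 0.07, adjusted p = 0.304).

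Cyp3a11 and Cyp3a13, both dim, differed at D3 by -0.06 (95% interval -0.27 to 0.16) and 0.01 (-0.23 to 0.26). Cyp4a10, a fatty acid hydroxylase and target of PPAR alpha, differed by 0.16 (-0.15 to 0.48), and Cyp4a31 by -0.04. Cyp2d22, Cyp2d11, Cyp2d12 and Cyp2d26 all lay above D0 at D1, by 0.06 to 0.29, and all below at D3, by -0.24 to -0.07 (Cyp2d22 was above 0 with the red channel alone), with none past the adjusted p. Cyp2r1, which hydroxylates vitamin D, Cyp2t4 and the fatty acid hydroxylase Cyp4v3 had D3 differences of -0.06, -0.05 and 0.10. The second probe of Cyp2r1 gave 0.20 (95% interval -0.02 to 0.42, adjusted p = 0.231), beside -0.54 to 0.42 for the first.

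Between neighbouring doses no member passed the adjusted p (background 0% for D2 against D1 and 0.21% for D3 against D2, of which 0.183% higher and 0.0271% lower, and 0% and 0.169% with the fold as well). At an unadjusted limma p under 0.05 there were 9 and 3 of 32 members, beside 1618 and 1856 of all 14762 genes. In D2 against D1, 24 of 32 members had a lower mean in D2 and 8 a higher one, where 49.2% of all genes were higher, with a median of -0.06 beside -0.00 over all genes, and Cyp2b9 had the largest difference (-0.68, adjusted p = 0.189). In 14 members the highest group mean was that of D1, in 10 that of D3, in 5 that of D0 and in 3 that of D2. In D3 against D2 the largest difference upward was that of Cyp2j6 (0.35, adjusted p = 0.0947).

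The AHR targets of the Cyp1 family are given for scale. Cyp1a1 differed by 1.29 at D1 (adjusted p = 0.247) and rose by 2.96 at D2 and 3.61 at D3 (limma adjusted p = 0.000838). Cyp1b1 rose by 1.66 at D1, 2.42 at D2 and 2.68 at D3. Ahrr, the AHR repressor, was called at all 3 doses, with an adjusted p of 1.98e-05 at D1 and increases of 1.79 at D2 and 1.84 at D3. Among the 32 tested Cyp2, Cyp3 and Cyp4 genes the largest difference from D0 at any dose was that of Cyp4b1-ps2, 0.62 at D3 (1.36 with the processed signals of the scanner software).

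Genes that work with these P450s were read from lists of partners. Of 10 redox partners and haem genes, none was called at any dose, where 1.19%, 0.975% and 2.73% of all genes were at D1, D2 and D3. By adjusted p alone Hmox1, which degrades haem (-0.24), and Pgrmc1, a haem-binding partner (-0.24), were lower at D3, as 5.39% of all genes were, and the P450 reductase Por differed by -0.07 (95% interval -0.32 to 0.18). The list's median at D3 was -0.04 beside 0.03 over all genes. Of 10 tested nuclear receptor genes none was called at any dose, beside the same shares of all genes. Pparg, the regulator of lipid storage, was lower by adjusted p alone at D3 (-0.48, adjusted p = 0.00589, where 5.39% of all genes were lower), while Nr1i2 (PXR, -0.08), Nr1i3 (CAR, -0.19) and Ppara (-0.23) did not pass.

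The partner with the largest change was Ephx1, the microsomal epoxide hydrolase that acts on epoxides made by P450s. It was 1.09, 1.33, 1.67, 1.55 and 1.55 in D0 (mice 1 to 5) and 2.17, 2.17, 2.37 and 2.12 in D1 (mice 21, 22, 24 and 25). D2 had 2.23, 2.39, 2.42, 2.59 and 2.54 (mice 23, 26, 28, 29 and 30) and D3 had 2.79, 2.71, 3.01 and 2.77 (mice 31, 32, 34 and 35). No dosed mouse overlapped with D0, and D3 lay above D2. The increase was 0.77 at D1 (SE 0.108, limma adjusted p = 0.000801), 0.99 at D2 (adjusted p = 1.86e-05) and 1.38 at D3 (adjusted p = 1.29e-07), with 1.07 to 1.54 on the 3 slides at D3.

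Ephx1 was the gene called, at each dose, among 16 tested genes of eicosanoid and epoxide metabolism, where 1.19%, 0.975% and 2.73% of all genes were called at D1, D2 and D3. By adjusted p alone Ptgis, the prostacyclin synthase (itself a P450), was higher at D3 (0.36) and Ptges, a prostaglandin E synthase, lower (-0.38), where 13.8% of all genes passed. Ephx2, the soluble epoxide hydrolase that degrades the epoxides made by Cyp2j enzymes, differed by 0.34 (95% interval 0.02 to 0.65, adjusted p = 0.157). The median of the list was 0.13 at D3.

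Of 13 PPAR target genes outside the P450s, 2 were called lower at D3 and none higher, where 2.73% of all genes were called in either direction. Angptl4, a secreted inhibitor of lipoprotein lipase, ranged from 0.30 to 1.30 in D0 and from -0.26 to 0.19 in D3 (-0.88, SE 0.262, limma adjusted p = 0.0336), with no overlap. Acot1, an acyl-CoA thioesterase, ranged from 1.18 to 1.84 in D0 and from 0.81 to 1.18 in D3 (-0.60, SE 0.167, adjusted p = 0.0225). Both calls were lost when mouse 3, 4, 5, 31, 34 or 35 was left out (adjusted p up to 0.0919 and 0.0618). Cpt1a (0.35) and Ucp3 (0.36) were higher by adjusted p alone (8.41% of all genes were), so the list did not move one way, and its median was 0.05. The adipocyte genes, of which Cidec was called lower (-0.70) and Lep was in no mouse, had a mean of 1.48 to 2.48 in D0 and 1.17 to 2.94 in D3, and their part in these values was not tested.

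**Figure D5:**
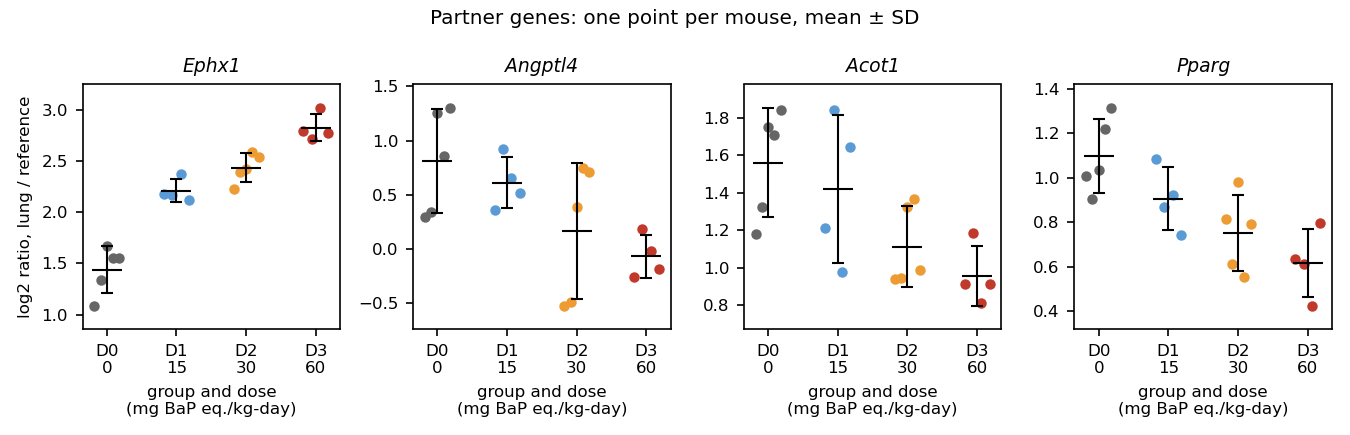
Log2 ratio of lung over reference RNA in every mouse for 4 genes that work with the P450s, with the group mean and SD, by group and dose in mg BaP equivalents/kg-day; each y axis has its own range. Ephx1 stepped up at each dose, with all dosed mice above D0, and Angptl4, Acot1 and Pparg had their lowest mean in D3.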

How the data were processed

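Agilent 2-colour arrays of lung RNA against Universal Mouse Reference RNA were analysed. The scanner output was deposited as raw spot intensity values, beside processed signals in which Feature Extraction 11.0.1.1 (version per the file headers) had removed background and balanced the dyes. The authors also deposited normalized log2 ratios, and their r with the ratios computed here was 0.995 to 0.998. Of 62976 spots per array, 3671 control spots and 171 to 323 outlier spots were left out. As in the study's methods, median signals without background subtraction were used, with loess in each array (span 0.3). No dyes were swapped, so ratios are open to dye bias. Of 22765 RefSeq-type identifiers, 21465 matched a RefSeq gene table (GRCm38.p6), used for names alone.

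Groups were compared with limma 3.58.1 (R 4.3.3; lmFit, eBayes), checked on simulated data, in 1 model of all 18 mice over 31119 probes, with p-values adjusted over all of them by Benjamini-Hochberg. limma stood in for the MAANOVA of the methods, which was not installed. The named genes were a fixed set of members plus any other member called. The members, lists and rule were chosen with earlier results of these data known. Intervals are at 95%, and the number of mice limits the precision. Background, normalization, filter, slide, mouse 23, mouse 35, probe choice and each mouse were varied.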

Additional observations from a re-analysis of the deposited data

Results flagged for a closer look

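In 6 of 144 sets of values (32 P450 genes and 4 partner genes in 4 groups) 1 mouse lay far from the others of its group, where chance would give about 7.2 at 1 in 20. In D3, mouse 35 had 1.37 for Cyp2j8 (the nearest mouse had 1.04) and 0.96 for Cyp4f39 (nearest 0.42). Mouse 31 had -0.52 for Cyp2c37 (nearest -0.19), and mouse 34 had 7.78 for Cyp4b1 (nearest 7.20). In D0, mouse 4 had 6.23 for Cyp2a4 (nearest 5.12) and mouse 5 had 0.82 for Cyp2j6 (nearest 0.77). All values are log2 ratios of lung over reference. Cyp2j8 at D3 passed the adjusted p without mouse 35 (0.41, adjusted p = 0.00438), and Cyp2c37 at D3 did not pass without mouse 31 (-0.20, adjusted p = 0.170).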

How the results depend on the processing

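The changes of the named P450 genes were recomputed under up to 33 different alternatives, of which 18 left out 1 mouse and 1 (Aquantile between arrays) leaves ratios as they are. The trend could not be fitted with only the 2 groups. Of 33, Cyp2j8 at D3 passed the adjusted p in 32 (0.40 to 0.71), Cyp2j6 and Cyp4b1 in 25 each, Cyp4f17 in 24, Cyp2c37 in 17, Cyp4b1-ps2 in 15 and Cyp2j9 in 12, and these 7 kept their sign at D3. At D1 Cyp2j8 passed in 31, Cyp4f13 in 15, Cyp2c37 in 14 and Cyp4f17 in 8. Centring on the median in place of loess left 0 members past the adjusted p at D1, at D3 and in the trend and 0 called at D3, and the median of all probes then moved by 0.17 at D1, 0.12 at D2 and 0.06 at D3. Of all 31119 probes, 12 then passed at D1 (1465 with loess), 98 at D3 (3836 with loess) and 54 in the trend (2031 with loess). The causes of these changes were not tested.

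Members called at D3 were 2 with the processed signals (Cyp2j8 and Cyp4b1-ps2), and 0 with the red channel alone, the deposited table, no filter, no mouse 23, mouse 23 in D1 or only the 2 groups compared in the fit. Of all 31119 probes, 1366 were called with the processed signals, 681 with the red channel alone and 717 with the deposited table, beside 754 with the settings used above. Such counts are not given here for the other settings. Members past the adjusted p at D3 were 3 with the red channel alone, 2 with the deposited table, 4 with no filter and 4 with only the 2 groups. Of all 31119 probes, 3300 passed with the red channel alone and 3523 with the deposited table, beside 3836 with the settings used above. At D1, 1 member was called with the processed signals (Cyp2c37), where 638 of all probes were, beside 328 with the settings used above. Past the adjusted p at D1 were 2 with the processed signals or no mouse 23, and 1 with the red channel alone, the deposited table, no filter, mouse 23 in D1, the first array of mouse 35 or only the 2 groups. Of all probes, 1487 passed at D1 with the processed signals, 1397 with the red channel alone and 1297 with the deposited table, beside 1465 with the settings used above. In the trend, 2 were called with the processed signals (715 of all probes, beside 473 with the settings used above). There, 1 was called with a filter on all mice, with slide as a block or with the second array of mouse 35. In the trend 1 member passed the adjusted p with no filter or with mouse 23 in D1. With slide as a block 1 member, Cyp4b1, passed at D2. Cyp2b10 at D3 turned from -0.14 to 0.34 (adjusted p = 0.0309) with the red channel alone.

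Leaving out each mouse gave 0 to 1 members called at D3, in D2 against D1 and in the trend, and 0 at D1, at D2 and in D3 against D2. It gave 1 to 5 past the adjusted p at D1, 0 at D2, 1 to 7 at D3 and 0 to 3 in the trend. The lowest count at D3 came without D3 mouse 31 or 35, and the highest at D1 without D2 mouse 28, without which Cyp2b9 was called in D2 against D1. No paired analysis was possible because the groups share no mouse numbers, and slide was fitted as a block instead. Probes near background, such as those of Cyp3a11 and Cyp3a13, limit what a difference there can show.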
